A study of Mus musculus with 16 samples.

Results

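The germline variable (V) genes of the antibody loci were followed in RNA-seq of pulmonary endothelial cells (ECs) from mice with acute lung injury. Members were the genes whose name starts with Ighv, Igkv or Iglv and whose biotype is IG_V_gene, which gave 216 of the 54532 genes measured. They were chosen by name and biotype, but the group was selected on the levels and differences of these genes between LPS and saline and between genotypes, which were known beforehand, so the levels and differences of its members are given as a description. Counts of members past a threshold come from fits over all genes, stand beside the counts over all genes and are not read as a test of the group. WT C57/BL6J male mice aged 8 weeks received saline (saline, n = 4) or 10 mg/kg lipopolysaccharide, a bacterial endotoxin (LPS, n = 6). Fgfr1 loxP/loxP control littermates (wt, n = 3) and Fgfr1 iΔEC/iΔEC mice (cko, n = 3) all received tamoxifen and later 2 mg/kg LPS. In cko mice, tamoxifen starts a Cre driven by the VE-cadherin promoter that deletes the FGF receptor gene in ECs. Saline and LPS were instilled into the trachea and cells were taken after 24 h, so the wt and cko groups contain no mouse without LPS. Magnetic beads against CD45 first removed leukocytes from the lung digest, and beads against CD31 then captured the ECs.

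Each B cell joins one V gene to short downstream segments to build the variable part of its heavy chain (Ighv) and, in the same way, of its light chain (Igkv for kappa, Iglv for lambda). The joined V gene is then transcribed together with a constant gene, Ighm and Ighd in naive B cells and Igha or an Ighg gene after class switching. Plasma cells, the end stage of the lineage, transcribe the joined genes at very high levels, and V genes in their germline state are nearly silent in other cells. V gene usage is commonly taken as a fingerprint of the B lineage clones in a tissue.

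The 113 Ighv members lie on chromosome 12 between 113578504 and 116000461, all on the minus strand. The 100 Igkv members lie on chromosome 6 between 67555497 and 70704177, with 38 on the plus strand and 62 on the minus strand. The 3 Iglv members lie on chromosome 16 between 19085017 and 19260859 (all GRCm38). Another 2 genes of biotype IG_V_gene carry other names and were not members, and neither were 155 V pseudogenes. In GENCODE M21, 214 of the 216 members have 2 exons, one for most of the leader peptide and one for the V region, and the coding sequence runs to the end of the gene, where it is joined to the next segment in B cells.

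The following stretches are the last 90 coding bases of the members on which the results turn, all on the minus strand of GRCm38 and printed 5′ to 3′, with the tyrosine and second conserved cysteine codons near the V end in capitals (TATNNNTGT, TATNNNTGC, TACNNNTGT or TACNNNTGC, searched in the sense strand of the last 60 bases). Igkv8-21 (chr6:70314895-70314984), Igkv10-96 (chr6:68631963-68632052), Ighv1-72 (chr12:115757984-115758073) and Ighv9-3 (chr12:114140692-114140781) were the 4 most read V genes of wt library 1.
Igkv8-21: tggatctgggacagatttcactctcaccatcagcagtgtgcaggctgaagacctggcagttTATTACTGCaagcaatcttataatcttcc
Igkv10-96: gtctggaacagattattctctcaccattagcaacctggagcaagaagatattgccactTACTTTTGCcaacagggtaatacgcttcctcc
Ighv1-72: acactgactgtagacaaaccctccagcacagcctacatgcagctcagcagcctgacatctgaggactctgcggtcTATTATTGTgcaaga
Ighv9-3: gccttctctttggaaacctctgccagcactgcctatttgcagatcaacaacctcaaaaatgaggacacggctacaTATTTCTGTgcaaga
Ighv1-62-3 (chr12:115460999-115461088) is the nearest copy of Ighv1-72, with 3 differences in 351 coding bases, 1 of them in the stretch shown.
Ighv1-62-3: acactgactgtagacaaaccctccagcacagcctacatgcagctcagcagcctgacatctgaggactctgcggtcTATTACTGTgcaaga
Ighv2-5 (chr12:113685482-113685571) was read almost entirely in a single wt library, and Igkv6-23 (chr6:70260409-70260498) led a single saline library.
Ighv2-5: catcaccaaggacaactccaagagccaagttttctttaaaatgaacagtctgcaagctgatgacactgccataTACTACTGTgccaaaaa
Igkv6-23: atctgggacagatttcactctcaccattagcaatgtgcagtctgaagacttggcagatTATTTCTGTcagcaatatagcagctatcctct
Iglv1 (chr16:19085017-19085106) and Iglv3 (chr16:19241207-19241296) were the leading lambda members after LPS at 10 mg/kg and in saline.
Iglv1: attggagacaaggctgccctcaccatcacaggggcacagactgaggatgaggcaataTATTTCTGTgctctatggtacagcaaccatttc
Iglv3: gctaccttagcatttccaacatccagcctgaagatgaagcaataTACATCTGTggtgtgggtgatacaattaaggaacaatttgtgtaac

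The codon pair was found in 212 of the 216 members (98.1%), in frame in each of them, and in 6.66% of the last 60 bases of all 141515 GENCODE M21 transcripts. Members resemble each other closely. The nearest other member was a median of 94.6% identical over the coding sequence, and 99 members had a copy at 95% identity or more. These 99 members held 55.6% of the V reads in the saline and LPS libraries and 53.2% in the wt and cko libraries. How reads that align to several copies were counted is not given in the sources used here, so the value of a single member with a near-identical copy is uncertain and the sum over members is less so. Ighv1-62-3, the near-identical copy of Ighv1-72, was listed at no more than 0.90 FPKM in any wt or cko library, where Ighv1-72 reached 101 FPKM.

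The labels of the libraries were first compared with their markers. Fgfr1 was 2.90, 2.91 and 2.59 FPKM in wt libraries 1 to 3, and 0.68, 1.41 and 1.15 FPKM in cko libraries 1 to 3. FPKM are fragments scaled by gene length and by a size factor of each library, not by its total reads. The groups did not overlap (log2 fold change of -0.88 ± 0.16, SE, on the log2(FPKM + 1) scale). The adjusted p of Fgfr1 in limma over all genes was 0.96. The EC genes Pecam1 and Cdh5 were at least 347 and 306 FPKM in every wt and cko library. B lineage RNA was present beside them. Cd79a and Cd79b, the signaling chains of the B cell receptor, were detected in each library, at 7.39 to 79.6 FPKM for Cd79a. Genes of antigen receptor assembly were close to absent, with Rag2, Igll1 and Vpreb2 listed at 0 in all 6 wt and cko libraries and Rag1 at most 0.37 FPKM in any library. In bulk samples, fewer cells of a type and less RNA per cell cannot be told apart, which holds for each comparison that follows.

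V gene reads formed a small part of every library, between 348 and 10666 reads of 13478726 to 19043015 reads on genes. In the first experiment, saline libraries 1 to 4 held V reads of 112, 225, 22.9 and 165 RPM (reads for each 1000000 reads on genes), on average 131 ± 85.5 (SD). LPS libraries 1 to 6 held 25.7, 33.0, 68.3, 44.5, 18.5 and 20.2 RPM (35.0 ± 18.9, SD). The mean in saline was 3.74-fold that in LPS, a log2 ratio of -1.90, and 3 saline libraries lay above all 6 LPS libraries. Saline library 3 did not: at 22.9 RPM it lay within the LPS range, and the log2 ratio without it was -2.26. The heavy, kappa and lambda members each had a lower mean in LPS, with saline 4.01-fold, 3.64-fold and 3.44-fold above it. The split between loci stayed alike, with Igkv members holding 57.1% ± 2.1 (SD, n = 4) of V reads in saline and 58.0% ± 4.4 (SD, n = 6) in LPS.

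**Figure D1:**
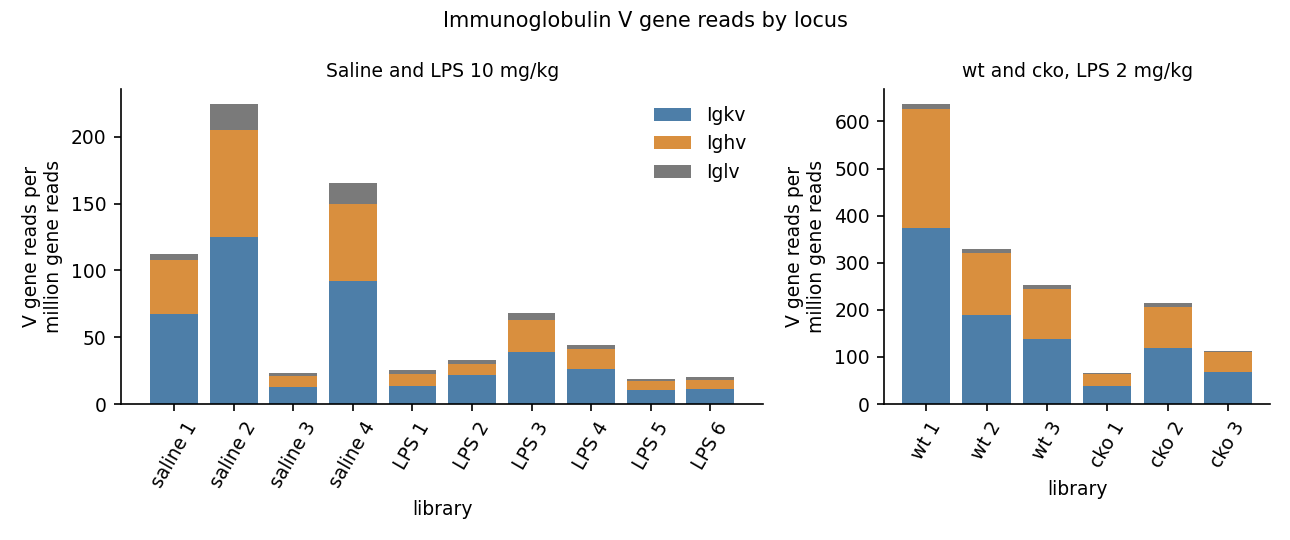
Stacked bars give V gene RPM (vertical axis) for each library (horizontal axis), split into Igkv, Ighv and Iglv members, with saline and LPS libraries on the left and wt and cko libraries on the right on a separate scale. Saline library 3 sits among the LPS libraries at 22.9 RPM, and the 3 wt libraries (253 to 637) stand above the 3 cko libraries (66.8 to 215).

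Of the 216 members, 17 had no read in the saline and LPS libraries and 99 reached the mean of 0.5 FPKM at which genes were tested. Of these, 35 passed only through their saline level. With limma, 19 of the 99 members were called lower in LPS (adjusted p ≤ 0.05 with a log2 fold change of 1 or more in size) and none was called higher, beside 6.79% of all 14893 genes called lower and 11.9% called higher. Because the rule for the group names this contrast, nothing is read from these counts. All 99 log2 fold changes were below 0, with a median of -0.79, beside a median of 0.01 over all genes tested. The groups did not overlap in 2 of the 99 members, Igkv5-43 and Ighv10-3, beside 16.7% of all genes apart in that direction. Saline library 3 decided many of these calls: without it 60 members were called lower, while leaving out saline library 2 or 4 left 5 or 8. Pairing saline and LPS libraries by number, which the labels do not describe as linked, left 6.

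The members past this threshold, named as a description, were Ighv1-18, Ighv1-39, Ighv1-52, Ighv1-55, Ighv5-4, Ighv7-3, Igkv1-117, Igkv1-135, Igkv10-96, Igkv13-84, Igkv14-111, Igkv3-10, Igkv4-53, Igkv5-43, Igkv6-15, Igkv6-17, Igkv8-24, Igkv8-30 and Iglv3, with log2 fold changes of -1.47 to -1.01. Igkv1-135 was 4.80, 9.52, 2.27 and 6.58 FPKM in saline libraries 1 to 4 and had a median of 1.32 FPKM in LPS, with 0.42 as the lowest and 3.07 as the highest value (log2 fold change of -1.39 ± 0.34, SE). Its groups overlapped through saline library 3 and LPS library 3. Iglv3, one of the lambda genes, was 5.95, 20.9, 2.06 and 16.4 FPKM in saline against 1.46 to 4.75 FPKM in LPS. Igkv5-43 was 2.59, 4.05, 2.36 and 3.49 FPKM in saline and 0.14 to 1.88 FPKM in LPS, with no overlap, although its reads may include those of Igkv5-45, which is 98.6% identical. At the other end, Ighv6-3 (log2 fold change of -0.03 ± 0.28, SE) and Ighv14-2 (-0.12 ± 0.31, SE) had alike means in both groups.

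The usage of V genes in these libraries was broad. Iglv1 or Iglv3 was the most read V gene in saline libraries 2 and 4 and in LPS libraries 1, 2, 3, 4 and 6, tied with another gene in some, at 3.77% to 5.85% of V reads. Saline library 1 differed from the others of its group. There Igkv6-23 took 14.8% of V reads (95% exact binomial interval 13.0% to 16.6%), at 45.7 FPKM, against 9.92 and 4.82 FPKM in saline libraries 2 and 4. In saline library 3 it was listed at 0, where 3 reads would give 0.46 FPKM, and no LPS library exceeded 3.08 FPKM. The heavy chain member Ighv3-6 was high there too (20.7 FPKM), while the remaining saline libraries had 0.48, 2.76 and 6.33 FPKM. Thinned to 300 V reads, saline libraries held 95.5 ± 21.8 V genes (SD, n = 4) and LPS libraries 96.2 ± 9.1 (SD, n = 6), a difference smaller than the spread within either group. By family, the 53 Ighv1 members, the largest heavy chain family, took 18.9% ± 1.6 (SD, n = 4) of V reads in saline and 19.8% ± 3.1 (SD, n = 6) in LPS.

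B cell markers were low in the same libraries as the V genes. Summed over Ms4a1, Cd79a and Cd79b, all of which mature B cells transcribe, the level was 121, 152, 22.8 and 125 FPKM in saline libraries 1 to 4 and 19.0 to 55.7 FPKM in LPS. Saline library 3 was again within the LPS range. V gene RPM divided by this sum was 1.18 ± 0.26 (SD, n = 4) in saline and 0.98 ± 0.20 (SD, n = 6) in LPS. These ratios overlapped and differed by a log2 ratio of -0.27, beside -1.90 for the V reads themselves. The ratio mixes 2 scales, since RPM follows total reads and FPKM follows size factors. Per size factor, V reads had a log2 ratio of -1.68, beside -1.56 for the marker sum. Of 17 B cell genes, 8 were called lower in LPS (Blk, Cd22, Cd79a, Cr2, Fcer2a, Fcmr, Ms4a1 and Pax5) and none higher, with a median log2 fold change of -1.13.

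Other cell types moved with the comparison too. All 6 general leukocyte genes tested were called higher in LPS, among them Ptprc, which encodes CD45, with a summed level of 76.3 to 228 FPKM in saline and 711 to 1797 FPKM in LPS, led by Coro1a. The neutrophil list was 75.6 to 1402 FPKM in saline, highest in library 1, and 1279 to 6630 FPKM in LPS, led by S100a9. The T cell list was 55.3, 51.0, 11.6 and 49.6 FPKM in saline libraries 1 to 4 and 8.98 to 36.2 FPKM in LPS, and reads on T cell receptor V genes were 7.66 ± 3.54 (SD, n = 4) and 2.94 ± 1.52 (SD, n = 6) RPM. The 10 EC genes summed to 3351 to 5478 FPKM in saline and 1477 to 3538 FPKM in LPS, led by Cldn5. All 10 had log2 fold changes below 0, with a median of -0.63, and Kdr, Tek and Tie1 were called lower. The 10 epithelial genes summed to 1151 to 2973 FPKM in saline and 293 to 1023 FPKM in LPS, led by Sftpc, without overlap, and Scgb1a1 and Sftpc were called lower. Among 15 genes of B cell receptor signaling, many of which myeloid cells also use, 10 were called higher (Bcl10, Btk, Lyn, Pik3ap1, Pik3cd, Plcg2, Prkcb, Ptpn6, Syk and Vav1) and 1 lower (Rasgrp3). Among 9 genes for octamer and enhancer factors of the antibody loci, Ikzf1, Irf8, Pou2f2 and Spi1 were called higher and Ikzf3 lower. Their part in the V gene values was not tested.

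The constant genes put saline and LPS libraries in the same class. Ighm and Ighd together made up most of the heavy chain constant FPKM, with IgM at 74.0% ± 8.1 and IgD at 24.9% ± 8.2 in saline (SD, n = 4) and 72.1% ± 3.8 and 22.7% ± 2.5 in LPS (SD, n = 6). Ighm was 158, 155, 26.2 and 132 FPKM in saline libraries 1 to 4 and 14.6 to 60.4 FPKM in LPS, and it was called lower, as were Ighd, Iglc2 and Iglc3. Igha, the constant gene of mucosal antibody, was at most 2.19 FPKM in saline and reached 6.03 FPKM in LPS library 4. As a share of heavy chain constant FPKM it was 0.53% ± 0.35 in saline (SD, n = 4) and 4.66% ± 4.38 in LPS (SD, n = 6), and the groups overlapped. Of the plasma cell genes, Jchain, which links antibody units into polymers, was at most 1.53 FPKM. The list summed to 108 to 129 FPKM in saline and 138 to 187 FPKM in LPS, without overlap and in the direction opposite to the V reads, led by Xbp1, which ECs and epithelial cells also transcribe. Of 9 plasma cell genes tested, 7 had log2 fold changes below 0, the direction of the V reads, with a median of -0.19. Sdc1 was called higher and Mzb1 and Prdm1 lower.

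In the second experiment, V reads were lower in cko than in wt. The wt libraries 1 to 3 held 637, 330.3 and 253 RPM of V reads (407 ± 203, SD) and the cko libraries 66.8, 215 and 113 (131 ± 75.5, SD). The groups did not overlap, and the mean in wt was 3.09-fold that in cko (log2 ratio of -1.63). Within equal library numbers, the log2 ratios were -3.25, -0.62 and -1.16, so the cko library was lower at all 3 numbers by very different amounts. Equal numbers deviated together in this experiment, but the labels do not describe them as linked. Without wt library 1 the log2 ratio was -1.15, and without cko library 2 it was -2.18. Ighv, Igkv and Iglv reads were each apart between the groups, with log2 ratios of -1.68, -1.62 and -1.03.

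Member by member, 23 of the 216 had no read in these libraries and 148 passed the filter, 24 of them only through wt and 9 only through cko. No member was called by limma, and neither was any of the other genes (0% of 14945, smallest adjusted p of 0.74), while 661 genes, 31 members among them, had an unadjusted p under 0.05. limma-voom on the recovered reads also called none. All 31 members were lower in cko, beside 2.36% of all genes in that direction and 2.07% in the other. The log2 fold change was below 0 in 119 of the 148 members and above 0 in 29, with a median of -0.76, beside 0.01 over all genes. Groups were apart with cko lower in 26 of the 148 members, beside 4.09% of all genes, and apart with cko higher in none of them, beside 6.02%. Nothing is read from these counts either, since the rule for the group names this contrast.

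Igkv8-21, the kappa gene with the highest mean level, was 218, 84.2 and 18.9 FPKM in wt libraries 1 to 3 and 0.32, 18.7 and 4.67 FPKM in cko libraries 1 to 3. The lowest wt and the highest cko library nearly touched, and the log2 fold change of -3.77 had an SE of 1.18. Igkv10-96 was 121, 48.0 and 10.7 FPKM in wt and 5.41, 16.1 and 9.59 FPKM in cko, so cko library 2 exceeded wt library 3. The heavy chain member Ighv1-72 was 101, 41.5 and 8.76 FPKM in wt and 1.99, 11.2 and 3.57 FPKM in cko, and overlapped in the same manner. Within each equal library number, Igkv10-96 and Ighv1-72 were lower in the cko library. Ighv9-3 was 86.3, 37.1 and 13.5 FPKM in wt and 2.94, 6.38 and 4.03 FPKM in cko, without overlap (log2 fold change of -2.79 ± 0.62, SE).

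These 4 genes, singled out after their values were seen, took the first 4 ranks among V genes in both wt library 1 and wt library 2, in the same order. The labels name these libraries as separate samples. Their reads differed by a mean chi-square of 29.6 for each gene, within the 7.28 to 133 over all pairs of libraries of a group, where sampling noise alone gives about 1, so no pair was counted as 1 sample. Whether the pair shares source material such as an animal was not tested. If it did, the wt group would hold fewer than 3 independent samples. Together the 4 genes held 31.4% of V reads in wt library 1 (95% exact binomial interval 30.5% to 32.3%), 24.5% in wt library 2 (23.4% to 25.7%) and 8.15% in wt library 3 (7.35% to 9.01%). In cko libraries 1 to 3 the shares were 5.65%, 9.29% and 6.96%. The FPKM ratio of Igkv8-21 to Igkv10-96 was 1.81, 1.75 and 1.76 in wt libraries 1 to 3, while in cko libraries 1 to 3 it was 0.06, 1.16 and 0.49. Between wt library 1 and wt library 2 the 4 genes differed by 2.59-fold, 2.51-fold, 2.43-fold and 2.32-fold. Over 42 members with at least 100 reads in the pair, the ratio was 0.21-fold to 40.6-fold (median 2.10-fold). This range leaves out Ighv2-5, which was read in wt library 1 but not in wt library 2 and so has no finite ratio. Igkv8-21 did not lead in the first experiment, where its rank among V genes was between 4 and 68 in the 10 libraries.

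**Figure D2:**
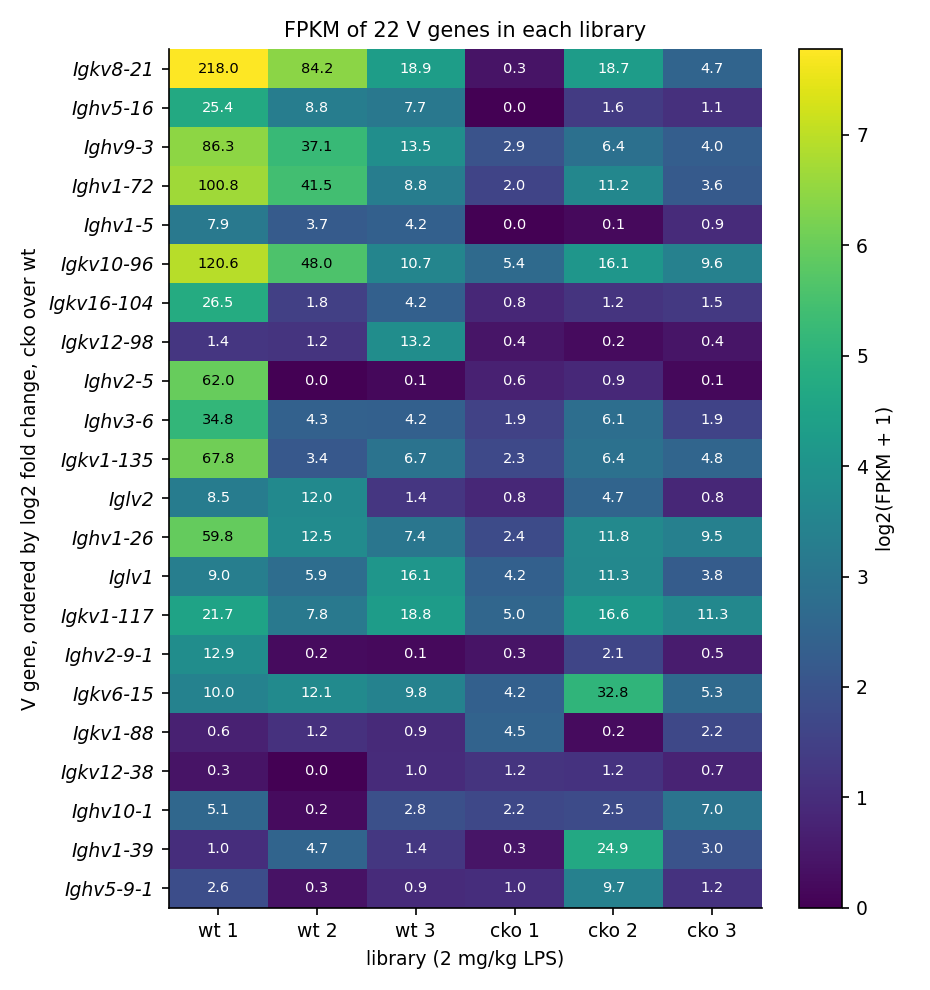
FPKM of 22 V genes (rows, ordered by the log2 fold change of cko over wt) in each wt and cko library (columns), with color on the log2(FPKM + 1) scale and the FPKM printed in each cell. Igkv8-21, Igkv10-96, Ighv1-72 and Ighv9-3 are high in wt libraries 1 and 2, whereas Ighv2-5 is high in wt library 1 alone and Ighv1-39 in cko library 2.

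Some members were read mostly in a single library. Of 80 members with at least 100 reads, 26 had 50% or more of them in 1 library, which was wt library 1 for 18 of them, the 4 leading genes included, wt library 3 for 4, wt library 2 for 2 and cko library 2 for 2. Over all members, wt library 1 held 39.8% of the V reads of these 6 libraries. Ighv2-5 was 62.0 FPKM in wt library 1, which held 97.3% of its reads, and was listed at 0, 0.11, 0.63, 0.86 and 0.13 FPKM in wt libraries 2 and 3 and cko libraries 1 to 3, where 3 reads in wt library 2 would give 0.38 FPKM. Igkv1-135 was 67.8 FPKM in wt library 1 and between 2.31 and 6.71 FPKM in the other 5. Igkv12-98 belonged to wt library 3, at 13.2 FPKM against 0.17 to 1.36 FPKM elsewhere. The cko group had such members as well. Ighv1-39 was 24.9 FPKM in cko library 2 and 0.35 to 4.68 FPKM in the other libraries, and Ighv5-9-1 was 9.70 FPKM in cko library 2, which held 61.8% of its reads, against 0.29 to 2.56 FPKM elsewhere.

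Some members with fewer reads were lower in all cko libraries. Ighv5-16 was 25.4, 8.81 and 7.68 FPKM in wt and was listed at 0, 1.55 and 1.13 FPKM in cko, where 3 reads in cko library 1 would give 0.48 FPKM (log2 fold change of -2.90 ± 0.52, SE, on the log2(FPKM + 1) scale). Ighv1-5 was 7.89, 3.70 and 4.18 FPKM in wt and 0, 0.15 and 0.93 FPKM in cko (-2.20 ± 0.33, SE), with 3 reads in cko library 1 worth 0.46 FPKM. These fold changes depend on the pseudocount, and with one of 0.1 they were -4.36 for Ighv5-16 and -4.10 for Ighv1-5. The lambda members Iglv1 and Iglv2 overlapped, with Iglv1 at 9.03, 5.92 and 16.1 FPKM in wt and 4.19, 11.3 and 3.77 FPKM in cko. Of the 5 members with the highest log2 fold changes, Ighv5-9-1 had 0.80 ± 0.70 (SE) and Igkv12-38, with 26 reads in all 6 libraries, had 0.56 ± 0.27 (SE), and the groups overlapped in each of the 5.

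V reads were spread over more genes in the cko libraries. The most read gene took 13.3% (95% exact binomial interval 12.6% to 13.9%) and 10.0% (9.21% to 10.9%) of V reads in wt libraries 1 and 2, Igkv8-21 in both, and 3.47% in wt library 3, Igkv5-43. In cko libraries 1 to 3 it took 2.92%, 5.40% and 3.93%. Thinned to 300 V reads, the wt libraries held 80.5, 81.8 and 95.3 V genes and the cko libraries 104, 98.4 and 98.9, with no overlap. The effective number of V genes is the inverse of the chance that a pair of V reads, drawn without replacement, falls on the same gene. It was 25.6, 37.0 and 66.4 in wt and 83.4, 60.2 and 73.9 in cko. Here wt library 3 exceeded cko library 2, although within each equal library number the cko value was the higher. Summed without the most read V gene of each library, V reads kept a log2 ratio of -1.54, and without the 5 most read genes one of -1.38, so the groups differed in the same direction without the leading genes, and did not overlap in either sum. The Ighv1 family held alike shares, 22.4% ± 3.0 in wt and 22.9% ± 2.0 in cko (SD, n = 3 each). Shares of the Igkv8 family were 12.1% ± 6.1 in wt and 5.33% in cko on average and overlapped.

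**Figure D3:**
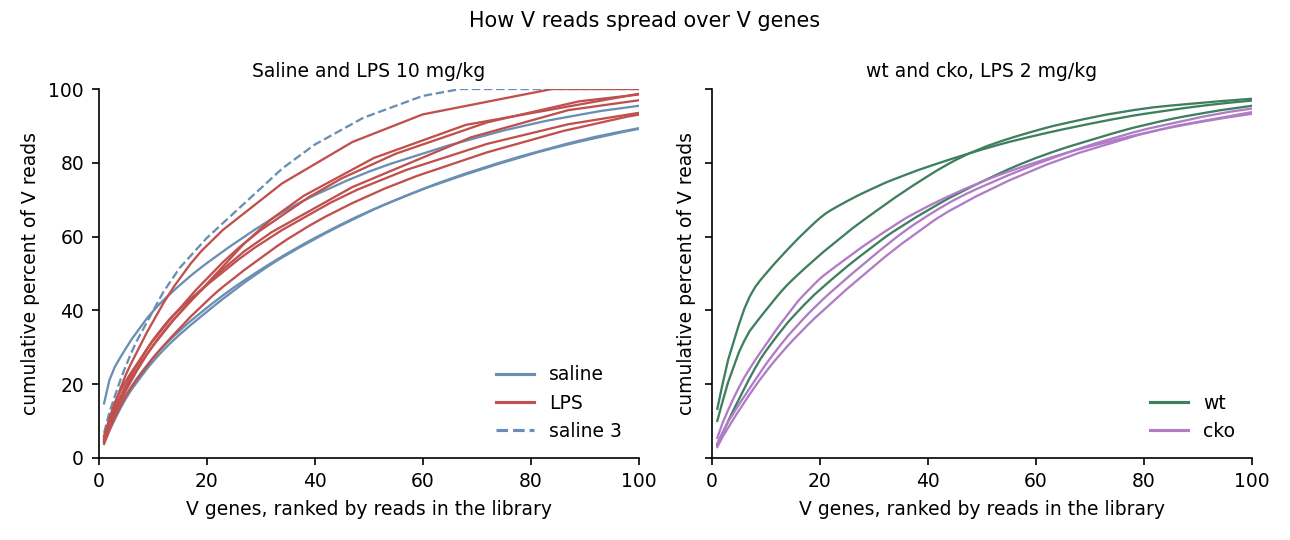
Cumulative percent of V reads (vertical axis) over V genes ranked by their reads in each library (horizontal axis), with 1 line per library, colored by group, and saline library 3 dashed. The steepest starts are those of saline library 1, wt library 1 and wt library 2, whose most read gene alone holds 14.8%, 13.3% and 10.0% of V reads.

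Among the constant genes, Igha and Igkc were apart between the genotypes, and Ighm, Ighd and Ighg2c overlapped. Igha was 210.3, 151 and 78.3 FPKM in wt libraries 1 to 3 and 20.6, 61.3 and 40.1 FPKM in cko libraries 1 to 3, without overlap (log2 fold change of -1.84 ± 0.48, SE). Igkc, which all kappa chains share, was 1061, 529 and 384 FPKM in wt and 122, 348 and 186 FPKM in cko, and was apart as well. Ighm was 89.7, 57.2 and 68.1 FPKM in wt and 39.0, 78.6 and 37.8 FPKM in cko, and Ighd likewise overlapped. Ighg2c, a class of serum antibody, reached 101 FPKM in wt library 1 and was 5.37 and 27.6 FPKM in the other wt libraries, against 2.24, 14.9 and 2.74 FPKM in cko. Class-switched genes thus made up 75.4%, 67.2% and 53.6% of heavy chain constant FPKM in wt libraries 1 to 3 and 30.2%, 45.3% and 45.1% in cko libraries 1 to 3, with no overlap. The share of IgA alone overlapped, at 42.3%, 56.5% and 36.2% in wt and 25.1%, 29.1% and 38.3% in cko, as did that of IgG. In the first experiment the switched share was 0.48% to 1.48% in saline and 1.14% to 11.4% in LPS. Dose and genotype differ between the experiments, so values of both are given side by side and were not tested against each other.

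**Figure D4:**
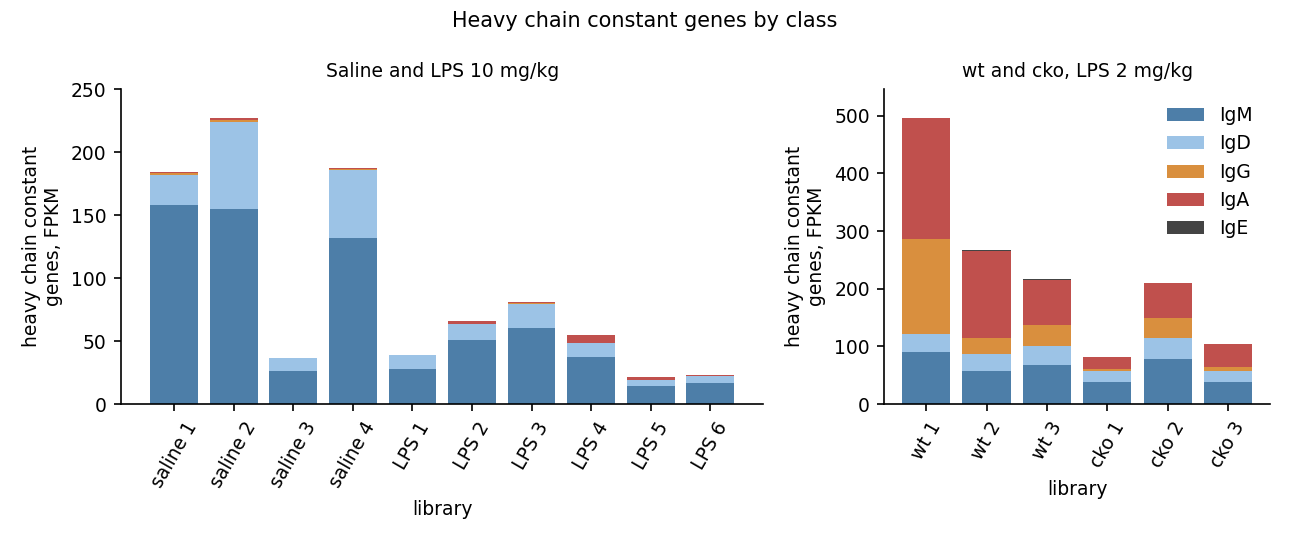
Stacked bars give the FPKM of heavy chain constant genes (vertical axis) by class for each library (horizontal axis), with saline and LPS libraries on the left and wt and cko libraries on the right on a separate scale. IgM and IgD make up most of each bar in the first experiment, where switched classes reach 11.4% in LPS library 4, and IgA is 210.3, 151 and 78.3 FPKM in wt libraries 1 to 3 against 20.6 to 61.3 FPKM in cko.

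Genes of B cells and of plasma cells were mostly below their wt level in cko. Over the lists, all 17 B cell genes and 9 of 10 plasma cell genes tested had log2 fold changes below 0, with medians of -0.48 and -0.37, and none was called. Jchain was 53.4, 33.8 and 16.8 FPKM in wt libraries 1 to 3 and 4.32, 11.7 and 9.87 FPKM in cko libraries 1 to 3, without overlap. Mzb1, a chaperone of antibody-secreting and marginal zone B cells, was 21.3, 17.8 and 8.76 FPKM in wt and 4.90, 10.2 and 4.62 FPKM in cko, and overlapped, with the cko library the lower within each equal number. The 3 B cell markers summed to 68.6, 66.3 and 58.8 FPKM in wt and 41.6, 82.7 and 34.3 FPKM in cko, with cko library 2 above all wt libraries. V gene RPM divided by this sum was 9.29, 4.98 and 4.30 in wt and 1.61, 2.59 and 3.30 in cko, and the groups did not overlap.

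Most lists of other cell markers had a median log2 fold change below 0 in cko as well, and none of their genes was called. All 12 T cell genes had log2 fold changes below 0, with a median of -0.35 and 4 of them apart, and the list summed to 108, 70.3 and 85.1 FPKM in wt libraries 1 to 3 and 62.9, 72.7 and 52.8 FPKM in cko libraries 1 to 3, led by Trbc2. Reads on T cell receptor V genes overlapped, at 12.3 ± 4.4 RPM in wt and 8.39 ± 2.99 in cko (SD, n = 3 each). All 10 epithelial genes were below 0 (median of -0.73), with sums of 980 to 2967 FPKM in wt and 498 to 1145 FPKM in cko, led by Sftpc. The median was -0.41 over the neutrophil list, with all 8 genes below 0, and -0.21 over the leukocyte list, with 5 of 6 below 0, and the summed levels of both overlapped. The EC list had a median of 0.23, with 1 of its 10 genes below 0 and 2 apart with cko higher. It summed to 2468 to 3086 FPKM in wt and 2747 to 3885 FPKM in cko. Within each equal library number, the cko library had the lower neutrophil and epithelial sums and the higher EC sum. The leukocyte and T cell sums went both ways. The part of these lists in the V gene difference was not tested.

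**Figure D5:**
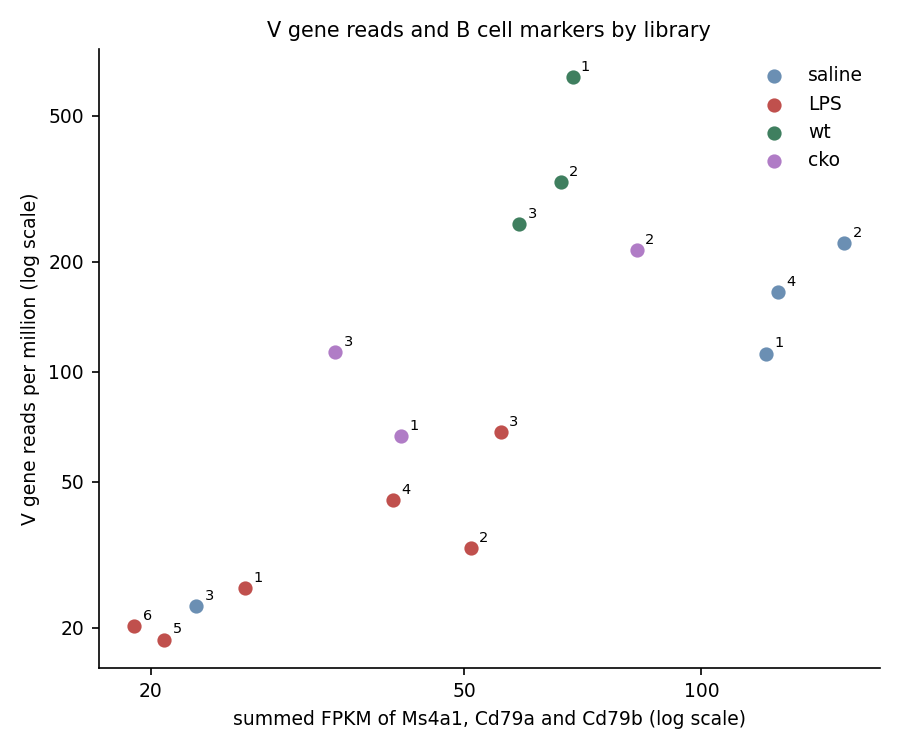
V gene RPM (vertical axis, log scale) against the summed FPKM of Ms4a1, Cd79a and Cd79b (horizontal axis, log scale), 1 point per library, numbered and colored by group. The ratio is 0.65 to 1.48 RPM per FPKM in the saline and LPS libraries, 1.61 to 3.30 in the cko libraries and 4.30 to 9.29 in the wt libraries.

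Genes outside the antibody loci were ranked by the Pearson correlation of log2(FPKM + 1) with log2 V gene RPM, as a description, since V reads and these genes come from the same libraries, which differ in cell makeup, and share each library's depth. Over the 10 saline and LPS libraries the 5 most alike were H2-DMb2 (r = 0.99), Ms4a1 (0.98), Pou2af1 (0.98), Spib (0.98) and Fcmr (0.98), of which Pou2af1 is the B cell coactivator of octamer factors and Fcmr the IgM receptor. Cd79a had r = 0.97 and Jchain r = 0.38. Over the 6 wt and cko libraries the 5 most alike were Rars2, Supt4a, Prf1, Tspan5 and Lax1, between 1.00 and 0.97. With only 6 libraries and so many genes ranked, top values this high can arise by chance, so nothing is read from them. Jchain (0.97) and Mzb1 (0.94), as well as the T cell gene Trac (0.96), stood above Cd79a (0.76) and Ms4a1 (0.75). That order rests on the same 6 libraries.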

How the data were processed

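RNA-seq was measured in bulk on bead-isolated pulmonary ECs, in 16 libraries of 2 experiments. The authors aligned reads to GRCm38 with HISAT2 2.0.5, counted them with featureCounts 1.5.0-p3 and deposited FPKM per gene. The annotation release, strandedness and treatment of multi-mapping reads are not given in the sources used here. FPKM steps gave whole reads for 100% of values (tolerance 0.05 read). To within 0.18%, the deposited FPKM followed median-of-ratios factors of the libraries rather than their total reads. RPM follows total reads on genes, so RPM and FPKM are on different library scales. Reads without molecular identifiers are not independent molecules, so intervals and the floor of 3 reads cover counting error only. Libraries of a group are labelled as separate samples, so p-values measure the spread between these samples.

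log2(FPKM + 1) was compared with limma 3.58.1 in R 4.3.3 (intensity trend, Benjamini-Hochberg adjustment) for genes averaging 0.5 FPKM or more, within each experiment. The fit was first run on simulated counts with the same spread setting for every gene and changes planted only in well-read genes. That check does not cover members with few reads. V reads were summed and scaled to 1000000 reads on genes (RPM). Members and gene lists were chosen with earlier results of these data known. A few list genes are not reported here and were left out of the lists. Named genes were drawn, in each experiment, from the 5 Ighv, 5 Igkv and 2 Iglv members with the highest means, the 5 largest and 5 smallest fold changes, the 5 members most confined to 1 library, constant genes, genes of the lists, and the 5 genes most correlated with V reads, and not all of them are printed. The lists not described elsewhere were macrophage (8 genes; 5 called higher and none lower in LPS), germinal center (5 tested; only Bach2 called, lower), B cell survival and homing (7 tested; 3 higher and 2 lower) and B cell precursor genes (none reached the filter), and in cko none of their genes was called.

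Equal numbers of wt and cko libraries deviated together (correlations of 0.25, 0.18 and 0.19 over genes). Values for unequal numbers were negative. Centering on the group mean forces this on balance, so they add nothing. The labels do not link the numbers, so comparisons within equal numbers are a description and the main fit has no block. Sequences and coding parts were read from GENCODE M21. Alternatives were another pseudocount, filter, scaling, limma-voom on recovered reads, the replicate block and each library left out.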

Additional observations from a re-analysis of the deposited data

Results flagged for a closer look

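Among 92 groups of values from the saline (n = 4) and LPS (n = 6) libraries, 5 had a sample far from the others of its group by Dixon's criterion, beside 4.6 expected by chance. IgD made up 12.8% of heavy chain constant FPKM in saline library 1, against 27.9% to 30.5% in the other saline libraries. Igkv4-74 was listed at 0 FPKM in saline library 3 and was 0.80 to 0.96 FPKM in the others. The summed T cell list was 11.6 FPKM in saline library 3, against 49.6 to 55.3 FPKM. Ighv members held 25.8% of V reads in LPS library 2, against 33.7% to 35.6% in the other LPS libraries. Igha was 6.03 FPKM in LPS library 4, against 0.24 to 2.00 FPKM. The wt and cko groups, with 3 libraries each, were not examined by this criterion.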

How the results depend on the processing

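The log2 ratio of V gene RPM kept its sign under every alternative run. For LPS over saline it was -1.88 without the most read V gene of each library, -1.89 with V pseudogenes, -1.68 per median-of-ratios factor, -2.24 as a ratio of medians and -1.30 as the mean over equal library numbers (a replicate block), and between -2.26 and -1.51 with each library left out. For cko over wt these values were -1.54, -1.62, -1.58, -1.55, -1.68 and between -2.18 and -1.15. Leaving out the 5 most read V genes, an alternative chosen after seeing the data, gave -1.89 and -1.38.

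The number of V genes called lower in LPS (19) was 11 with a filter of 10 mean reads, 8 with no filter beyond 1 read, 6 with the replicate block, 30 with scaling on total reads, 30 with no limit on the fold change, 23 with limma-voom, 20 with a pseudocount of 0.1, 17 with quantile normalization, and 5 to 60 with each library left out (12 without LPS library 5). The filter of 10 mean reads tested 40 members and 15693 genes; the cause was not tested for the other settings. Scaling on total reads shifted the all-gene median on the log2 scale by -0.16, and the median of the members was then -0.90. Over all genes, calls higher in LPS (1768) were 4399 with no limit on the fold change, and calls lower (1011) were 2008 with limma-voom, 1840 with a pseudocount of 0.1 and 3529 with no limit on the fold change. With each library left out they were 1641 to 1947 higher and 910 to 1107 lower. Calls in cko stayed at 0 under every setting.

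Equal library numbers did not deviate together in the first experiment (correlations of 0.10, -0.16, -0.21 and -0.12). In the second, the replicate block in limma made no call (smallest adjusted p of 0.31). It put 39 of the 148 members tested at an unadjusted p under 0.05, beside 1154 of all 14945 genes. Among 43 fold changes of named V genes, 625 of 634 alternative values moved by less than the spread within groups, none that was called reversed, and 614 kept their sign. V reads numbered 348 to 1219 in the LPS libraries over 216 members, which limits the precision of single members there. Of the members tested, 35 of 99 in the first experiment and 33 of 148 in the second passed the filter through 1 group.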
